A study of Drosophila melanogaster with 39 samples.

Results

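Small RNAs bound to Piwi were compared with the total small RNAs of ovaries carrying the same transgene. The comparison used 12 of the 39 libraries of the series, chosen by their labels: for each of 3 Piwi transgenes, 1 Piwi-bound library and 3 total libraries. The labels do not match a Piwi-bound library to the ovaries of any total library. Piwi (gene piwi, FBgn0004872, dm6 chr2L:10982205-10987420, minus strand) is the nuclear PIWI protein of the fly ovary. All 12 libraries came from ovaries of Drosophila melanogaster homozygous for Piwi>gal4, an allele in which the yeast activator Gal4 replaces Piwi under the piwi promoter, and which carried a UAS-FLAG-HA-Piwi transgene driven by that Gal4. The transgenes differed in the specificity loop, a loop of Piwi near the pocket that holds the first base of the small RNA. The loop was that of Piwi itself (wt), that of the PIWI protein Ago3 (Ago3), or a synthetic repeat of glycine and serine (GSS). Tagged Piwi was captured on anti-FLAG beads and its RNA was sequenced for the Piwi-bound libraries, whereas the total libraries started from total RNA selected by size. The study's methods for captured RNA also include size selection, made after the linkers had been ligated, so neither kind of library was free of it. The transgenes were inserted at random positions. The age of the flies and the number of ovaries per library were not given in the sources used here. The labels do not say whether the replicates were separate flies, so p-values measure only the spread between these libraries.

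PIWI-interacting RNAs (piRNAs) guide PIWI proteins to transposon transcripts. Piwi acts in the nucleus of somatic and germline cells of the ovary, where it directs transcriptional silencing, whereas Aubergine and Ago3 act in the cytoplasm of germline cells and cut transposon transcripts. Total small RNA of an ovary therefore holds the guides of all PIWI proteins together with the shorter siRNAs and miRNAs of the Argonautes Ago2 and Ago1. Reads matching miRNAs and other structural RNAs had been removed before the tables were made, so the total libraries are not a full census of small RNAs. No gene-level values were used, so markers of the tissue were not checked.

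The primers that built the exchanged loops are shown because they define how the transgenes differ. Capitals are printed as in the study's primer list and the sequences run 5′ to 3′. Both reverse primers end in the same 22 capital bases.
Ago3 forward: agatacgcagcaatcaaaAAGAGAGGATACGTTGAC
Ago3 reverse: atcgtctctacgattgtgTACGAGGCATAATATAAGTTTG
GSS forward: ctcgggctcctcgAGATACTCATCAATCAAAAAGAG
GSS reverse: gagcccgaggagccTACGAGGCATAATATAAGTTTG

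The Piwi-bound libraries held 24979756 raw reads for wt, 6631083 for Ago3 and 11555117 for GSS. The total libraries held 8794857 to 27194879 raw reads, except replicate 1 of GSS with 110971. Even in that library the 95% Clopper-Pearson interval of the share of 24–29 nt reads was only 0.680 percentage points wide, and this width covers counting error only. Total libraries of the same number shared a sequencing index, and the Piwi-bound libraries carried barcodes of another kind. No index held both kinds, so library kind, library preparation and RNA source cannot be told apart in any comparison below. Replicate 3 of all 3 transgenes had the highest shares of 30 nt reads among the total libraries (5.09% to 32.3% of 20–30 nt reads). Replicate 1 of GSS followed with 3.29%, and the remaining total libraries had at most 0.0567%.

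Among reads of 20–30 nt, Piwi-bound profiles lay towards longer lengths than total profiles. The most frequent length was 27 nt in 3 of 3 Piwi-bound libraries, against 25 nt in 7 of 9 total libraries. The other two total libraries were replicate 3 of wt, with most reads at 26 nt, and replicate 3 of GSS, with most at 30 nt. Shares at each length are percentages of the mapped reads of 20–30 nt in a library. Library kind was permuted within each transgene in a two-sided exact permutation test, with 64 arrangements and a smallest possible p of 0.03125, and p-values were adjusted by the Benjamini-Hochberg method over the 11 lengths. The test treats the 9 total libraries as independent. Moving whole sets of libraries that share an index would leave 4 arrangements and a smallest exact permutation p of 0.5, so no result could pass on that footing. The share differed at 8 of the 11 lengths (72.7% of those tested). It rose in Piwi-bound RNA at 27, 28 and 29 nt (3 lengths, 27.3%) and fell at 20, 21, 22, 23 and 24 nt (5 lengths, 45.5%), each with p = 0.03125 and adjusted p = 0.0430 in the exact permutation test. At each of these 8 lengths the Piwi-bound library lay outside all 3 total libraries in all 3 transgenes. Shares of a library sum to a whole, so the lengths are not independent of each other. All 8 lengths had the smallest possible p, and they passed the adjustment together because that many of the 11 tied there. With 1 total library left out, the smallest possible exact permutation p is 0.0417 and 0 lengths passed the adjustment, while 8 or 9 had an unadjusted p under 0.05.

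**Figure D1:**
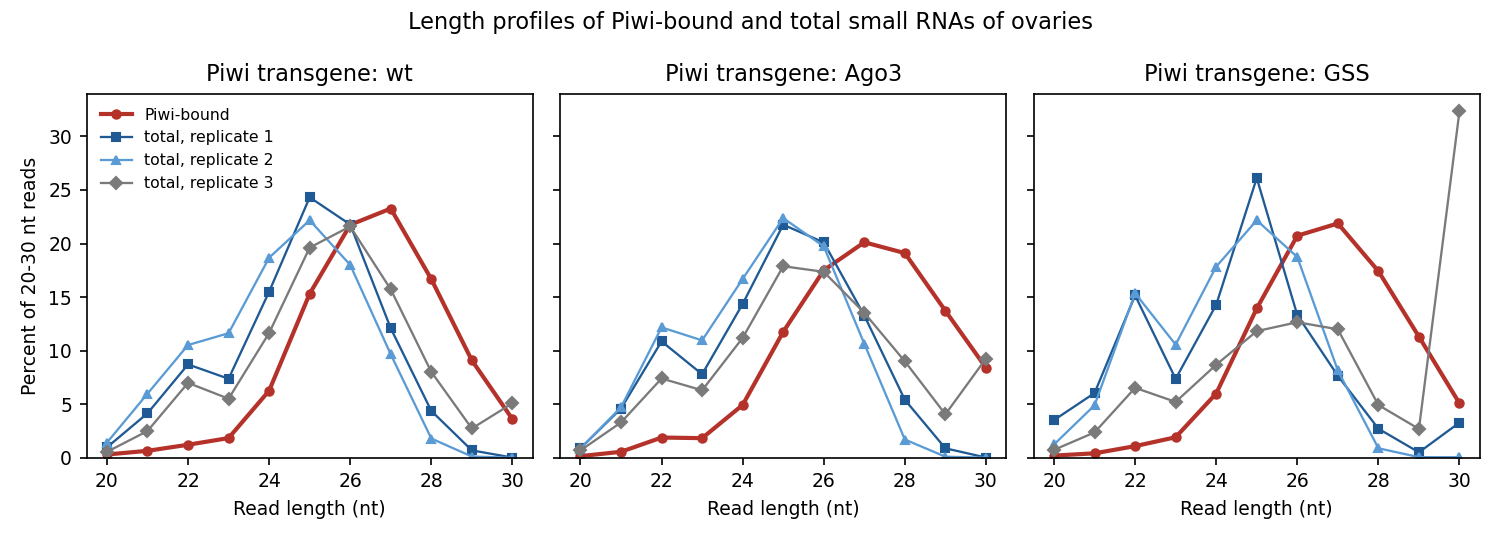
Percent of 20–30 nt reads (y axis) at each read length in nt (x axis) for the Piwi-bound library (red) and the 3 total libraries (blue and grey) of each transgene. The Piwi-bound profiles peak at 27 nt, and 7 of 9 total profiles peak at 25 nt, while replicate 3 of GSS ends at 32.3% at 30 nt.

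The long end of the piRNA range held the gains. At 27 nt the Piwi-bound share was 23.3% in wt, against 12.1%, 9.66% and 15.7% in its total libraries. It was 20.1% in Ago3 Piwi-bound RNA, against 13.3%, 10.6% and 13.5% in total RNA. In GSS it was 21.9% in Piwi-bound RNA, against 7.66%, 8.15% and 11.995% in total RNA. No total library reached the lowest Piwi-bound share, and the mean difference was 10.3 percentage points.

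At 28 nt the Piwi-bound share was 16.7% in wt, against 4.38%, 1.802% and 8.02% in total RNA. It was 19.1% in Ago3 Piwi-bound RNA, against 5.42%, 1.71% and 9.01% in total RNA, and 17.4% in GSS Piwi-bound RNA, against 2.72%, 0.892% and 4.93% in total RNA. The mean difference of 13.4 percentage points was the largest of the 11 lengths. Within each transgene replicate 3 was the total library with the highest share at 28 nt.

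Among the lengths that rose, the ratio of Piwi-bound to total share was highest at 29 nt in each transgene. The Piwi-bound share was 9.10% in wt, against 0.695%, 0.122% and 2.74% in total RNA. In Ago3 it was 13.7% in Piwi-bound RNA, against 0.887%, 0.105% and 4.06% in total RNA. In GSS it was 11.3% in Piwi-bound RNA, against 0.514%, 0.0633% and 2.70% in total RNA. The Piwi-bound share was thus 7.68 times the mean of the total libraries in wt, 8.15 times in Ago3 and 10.4 times in GSS, and the mean difference was 10.1 percentage points. These ratios rest on total libraries that differed widely among themselves, since replicate 3 was far above replicates 1 and 2 in each transgene.

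The short end held the losses. At 21 nt, the length of siRNAs, the Piwi-bound share was 0.655% in wt, against 4.16%, 5.98% and 2.503% in total RNA. It was 0.564% in Ago3 Piwi-bound RNA, against 4.60%, 4.72% and 3.30% in total RNA, and 0.421% in GSS Piwi-bound RNA, against 6.05%, 4.91% and 2.37% in total RNA. The mean share fell by 3.74 percentage points in Piwi-bound RNA.

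At 22 nt the total libraries had a local peak: the share exceeded that at 23 nt in 8 of 9 total libraries, and in 1 of 3 Piwi-bound libraries (Ago3, by 1.89% against 1.84%). The share of 22 nt reads was 1.22% in wt Piwi-bound RNA, against 8.72%, 10.53% and 6.995% in total RNA. It was 1.89% in Ago3 Piwi-bound RNA, against 10.9%, 12.2% and 7.41% in total RNA. In GSS it was 1.09% in Piwi-bound RNA, against 15.2%, 15.4% and 6.53% in total RNA. Every Piwi-bound value lay below every total value, and the mean share fell by 9.01 percentage points. Across the losses the Piwi-bound share ranged from 0.0883 of the total mean (22 nt, GSS) to 0.441 (24 nt, GSS).

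Between these ends the profiles crossed. At 25 nt the Piwi-bound share was 15.3% with the wt loop, 11.8% with the Ago3 loop and 13.9% with GSS, against means of 22.03% ± 2.35, 20.7% ± 2.43 and 20.0% ± 7.38 in the total libraries of the same transgenes (SD, n = 3 each). The exact permutation test gave p = 0.0625 and adjusted p = 0.0764, and the GSS value lay within its total libraries. The length passed under 2 alternatives, with adjusted p = 0.0333 by exact permutation over all 12 libraries and 0.0347 with 20–29 nt reads as the base, so that 9 lengths passed in each. At 26 nt the Piwi-bound and total shares overlapped in wt and Ago3, with a mean difference of 1.85 percentage points (exact permutation p = 0.4375, adjusted p = 0.481).

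**Figure D2:**
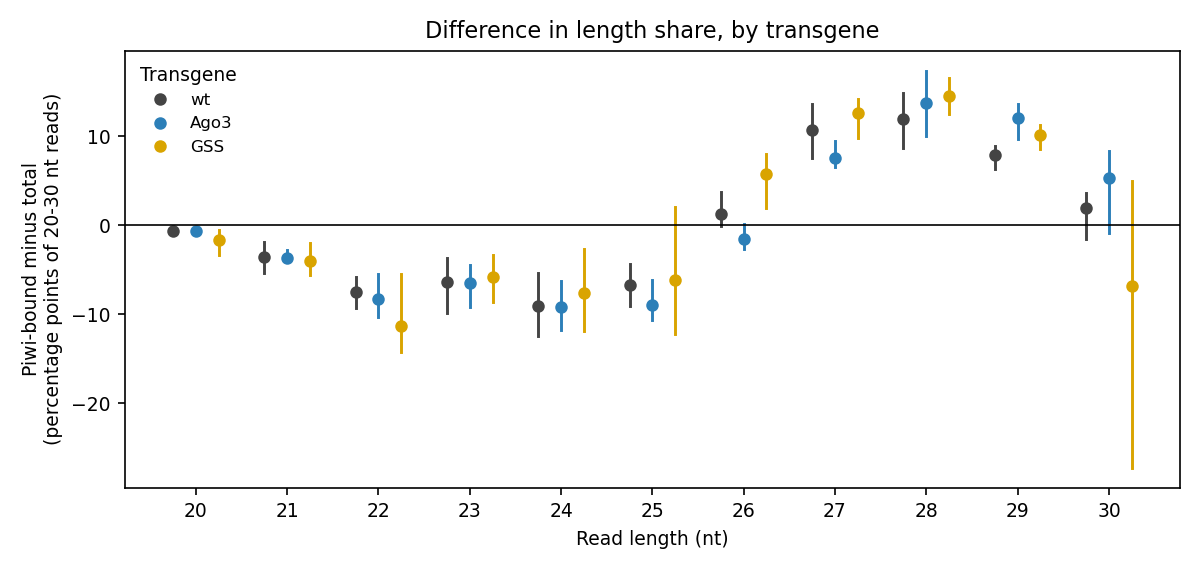
Piwi-bound share minus the mean share of the total libraries, in percentage points of 20–30 nt reads (y axis), by read length in nt (x axis), with 1 point per transgene. Lines run between the differences from the highest and the lowest total library, and they stay off 0 at 20 to 24 nt and at 27 to 29 nt in all 3 transgenes.

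At 30 nt, the longest length listed, the libraries gave no common direction. The share was 3.62% in wt Piwi-bound RNA, against 0.0261%, 0.00977% and 5.09% in total RNA. It was 8.41% in Ago3 Piwi-bound RNA, against 0.0299%, 0.0158% and 9.26% in total RNA, and 5.09% in GSS Piwi-bound RNA, against 3.29%, 0.0567% and 32.3% in total RNA. The Piwi-bound value exceeded replicates 1 and 2 and lay below replicate 3 in every transgene. The mean difference was 0.135 percentage points (exact permutation p = 0.656, adjusted p = 0.656), and its sign changed when single total libraries were left out. As a log2 ratio, the mean difference was 4.07 (exact permutation p = 0.281, adjusted p = 0.328). There the near-zero shares of replicates 1 and 2 of wt and Ago3, and of replicate 2 of GSS, weigh more.

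The lengths were then grouped, with 24–29 nt as the range of piRNAs and 20–23 nt as the range below it. Together with the share of 30 nt reads, mean length and the unique, mapped and M > 100 shares described below, these made 7 measures, and p-values were adjusted over the 7. In 4 of them every Piwi-bound library lay to the same side of its total libraries, which gave the smallest possible p, but 0 of 7 passed 0.05 after adjustment. The same p passed over the 11 lengths, where 8 tied at it, so these calls differ by the number of ties. Reads of 24–29 nt made up 92.4% in wt Piwi-bound RNA, against 78.7%, 70.4% and 79.3% in total RNA. They made up 87.1% in Ago3 Piwi-bound RNA, against 75.8%, 71.3% and 73.0% in total RNA. In GSS they made up 91.3% in Piwi-bound RNA, against 64.6%, 67.9% and 52.8% in total RNA. The mean was 90.3% ± 2.75 over Piwi-bound libraries (SD, n = 3) and 70.4% ± 8.19 over total libraries (SD, n = 9). The mean difference within transgenes was 19.8 percentage points, higher in 3 of 3 transgenes, with p = 0.03125 and adjusted p = 0.0547 in the exact permutation test.

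This difference depended on the base of the percentage. As a share of all mapped reads, 24–29 nt reads were 72.8% in wt Piwi-bound RNA, against 72.8%, 65.9% and 73.2% in total RNA. They were 68.2% in Ago3 Piwi-bound RNA, against 70.3%, 66.6% and 68.4% in total RNA, and 75.9% in GSS Piwi-bound RNA, against 55.1%, 63.1% and 50.1% in total RNA. Piwi-bound values lay within the total libraries in wt and Ago3, and the mean difference was 7.24 percentage points (exact permutation p = 0.25, adjusted p = 0.35). The 8 lengths that passed on the base of 20–30 nt reads also passed on the base of all mapped reads.

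Mapped reads that were not counted at 20–30 nt moved with library kind. They were 21.1%, 21.8% and 16.9% of mapped reads in the Piwi-bound libraries of wt, Ago3 and GSS, against 5.11% to 14.8% in total libraries. The 14.8% was that of replicate 1 of GSS, with 110971 raw reads, and every other total library had at most 7.72%. These reads are the gap between mapped reads and reads counted by length, and their lengths are not given. The study counted only unspliced reads and dropped those on non-standard chromosomes. Reads lost in that way and reads of other lengths cannot be told apart here, and the part of either in the differences was not tested. The share of mapped reads counted at 20–30 nt was lower in Piwi-bound RNA by a mean of 12.3 percentage points (exact permutation p = 0.03125, adjusted p = 0.0521 over 10 measures, of which this one and 2 others were chosen after values had been seen).

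Reads of 20–23 nt were scarce in Piwi-bound RNA on either base. They made up 4.03% of 20–30 nt reads in wt Piwi-bound RNA, against 21.2%, 29.6% and 15.6% in total RNA. They made up 4.45% in Ago3 Piwi-bound RNA, against 24.2%, 28.7% and 17.7% in total RNA, and 3.64% in GSS Piwi-bound RNA, against 32.1%, 32.1% and 14.9% in total RNA. The mean difference was -20.0 percentage points (exact permutation p = 0.03125, adjusted p = 0.0547), and -18.9 percentage points of all mapped reads. The spread over libraries was 0.405 percentage points in Piwi-bound RNA (SD, n = 3) and 6.95 percentage points in total RNA (SD, n = 9).

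Within the piRNA range the balance lay at the long side in Piwi-bound RNA. The ratio of 27–29 nt to 24–26 nt reads, which does not depend on the base, was 1.13 in wt Piwi-bound RNA, against 0.325 ± 0.157 in total RNA. It was 1.55 in Ago3 Piwi-bound RNA, against 0.378 ± 0.182 in total RNA, and 1.24 in GSS Piwi-bound RNA, against 0.316 ± 0.239 in total RNA (SD, n = 3 total libraries each). The highest ratio of any total library was 0.592, and that library was replicate 3 of GSS. The mean difference was 0.968 (exact permutation p = 0.03125, adjusted p = 0.0521 over 10 measures). This measure was also chosen after values had been seen.

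Piwi-bound RNA had a mean length of 26.5 nt (wt), 26.9 nt (Ago3) and 26.7 nt (GSS), against 24.3 to 26.7 nt in total RNA. The difference of 1.72 nt did not pass the exact permutation test (p = 0.0625, adjusted p = 0.0875), and replicate 3 of GSS, with its 30 nt reads, lay at the level of Piwi-bound RNA. Without reads of 30 nt, mean length was 26.4 to 26.7 nt in Piwi-bound RNA and 24.2 to 25.3 nt in total RNA, and the difference of 1.79 nt passed (exact permutation p = 0.03125, adjusted p = 0.0438). This was the smallest possible p, which 4 of the 7 measures also had without passing. It passed because a further measure then tied at that p, so the call reflects the number of ties.

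**Figure D3:**
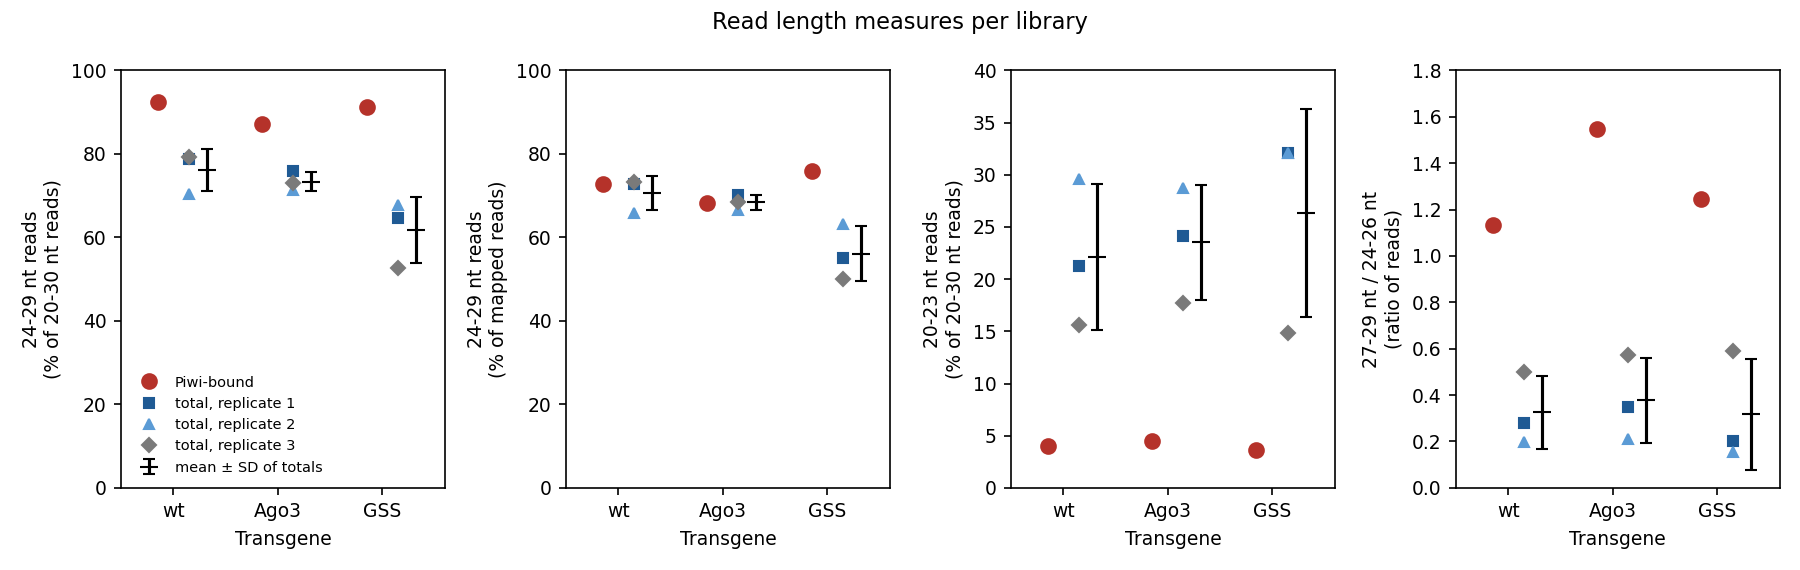
Read length measures (y axes, in percent or as a ratio) by transgene (x axes), with the Piwi-bound library in red to the left of its 3 total libraries and, in black, their mean ± SD (n = 3). The ratio of 27–29 nt to 24–26 nt reads is 1.13 to 1.55 in Piwi-bound and at most 0.592 in total libraries, whereas 24–29 nt reads as a share of mapped reads overlap in wt and Ago3.

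The 3 Piwi-bound profiles resembled each other more than any of them resembled a total library. The distance between profiles was measured as the percentage of reads that would have to change length for them to match. It was 4.50 between wt and GSS, 8.37 between Ago3 and GSS, and 12.5 between wt and Ago3. Between a Piwi-bound library and a total library of its own transgene it was 22.7 to 48.9, with a median of 41.7 over 9 pairs. To total libraries of other transgenes it was 24.1 to 52.2, with a median of 42.1 over 18 pairs. Between total libraries of the same number it was 4.57 to 27.4, with a median of 8.61 over 9 pairs, and between those of the same transgene 7.53 to 42.8, with a median of 16.2 over 9 pairs. Some total libraries were thus farther from each other than the nearest Piwi-bound and total libraries were. These distances are a description, since pairs share libraries, and no difference between transgenes was tested with 1 Piwi-bound library each.

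The mapped share of raw reads was lower in Piwi-bound RNA in all 3 transgenes. Raw reads equalled the sum of unique, M ≤ 100, M > 100 and unmapped reads in all 12 libraries. The sources used here do not say whether raw and unmapped reads include those removed as structural RNAs, so in every share of raw reads that removal and failure to map cannot be told apart. Mapped reads, unique or with at most 100 positions (M ≤ 100), were 73.7% of raw reads in wt Piwi-bound RNA, against 90.4%, 91.2% and 90.3% in total RNA. They were 68.6% in Ago3 Piwi-bound RNA, against 89.4%, 90.8% and 90.9% in total RNA, and 78.5% in GSS Piwi-bound RNA, against 80.6%, 91.1% and 93.5% in total RNA. The mean difference was -16.2 percentage points (exact permutation p = 0.03125, adjusted p = 0.0547). In GSS the nearest total library was replicate 1, the one with 110971 raw reads.

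Uniquely mapped reads as a share of mapped reads overlapped between library kinds. They were 29.8% in wt Piwi-bound RNA, against 31.7%, 33.1% and 30.0% in total RNA. In Ago3 they were 24.2% in Piwi-bound RNA, against 28.5%, 28.96% and 24.1% in total RNA, and in GSS 23.6% in Piwi-bound RNA, against 32.9%, 33.7% and 19.3% in total RNA. Each Piwi-bound value lay below replicates 1 and 2 of its transgene, and only replicate 3 of Ago3 and of GSS lay lower than its Piwi-bound library. The mean difference was -3.25 percentage points (exact permutation p = 0.344, adjusted p = 0.401), and -5.59 without replicate 3 of every transgene. Multimapping reads with M ≤ 100 were 51.7%, 52.0% and 60.0% of raw reads in Piwi-bound RNA of wt, Ago3 and GSS, against 54.1% to 75.5% in total RNA. The exact permutation test gave p = 0.0625 and adjusted p = 0.0781 over 10 measures. GSS lay within its total libraries, of which only replicate 1 (54.1%), the library with 110971 raw reads, was below it.

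Reads with more than 100 positions (M > 100), which come from the most repeated sequences, were rare in both kinds and rarer in Piwi-bound RNA. They were 0.0233% of raw reads in wt Piwi-bound RNA (5819 reads), against 0.0660%, 0.0647% and 0.0613% in total RNA. They were 0.00439% in Ago3 Piwi-bound RNA (291 reads, 95% Clopper-Pearson interval 0.00390% to 0.00492%), against 0.0663%, 0.0539% and 0.0477% in total RNA. In GSS they were 0.0156% in Piwi-bound RNA (1807 reads), against 0.0631%, 0.0565% and 0.0422% in total RNA, of which the first rests on 70 reads. The Piwi-bound share was 0.364 of the total mean in wt, 0.0784 in Ago3 and 0.290 in GSS. All Piwi-bound values lay below all total values, with a mean difference of -0.0435 percentage points (exact permutation p = 0.03125, adjusted p = 0.0547).

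**Figure D4:**
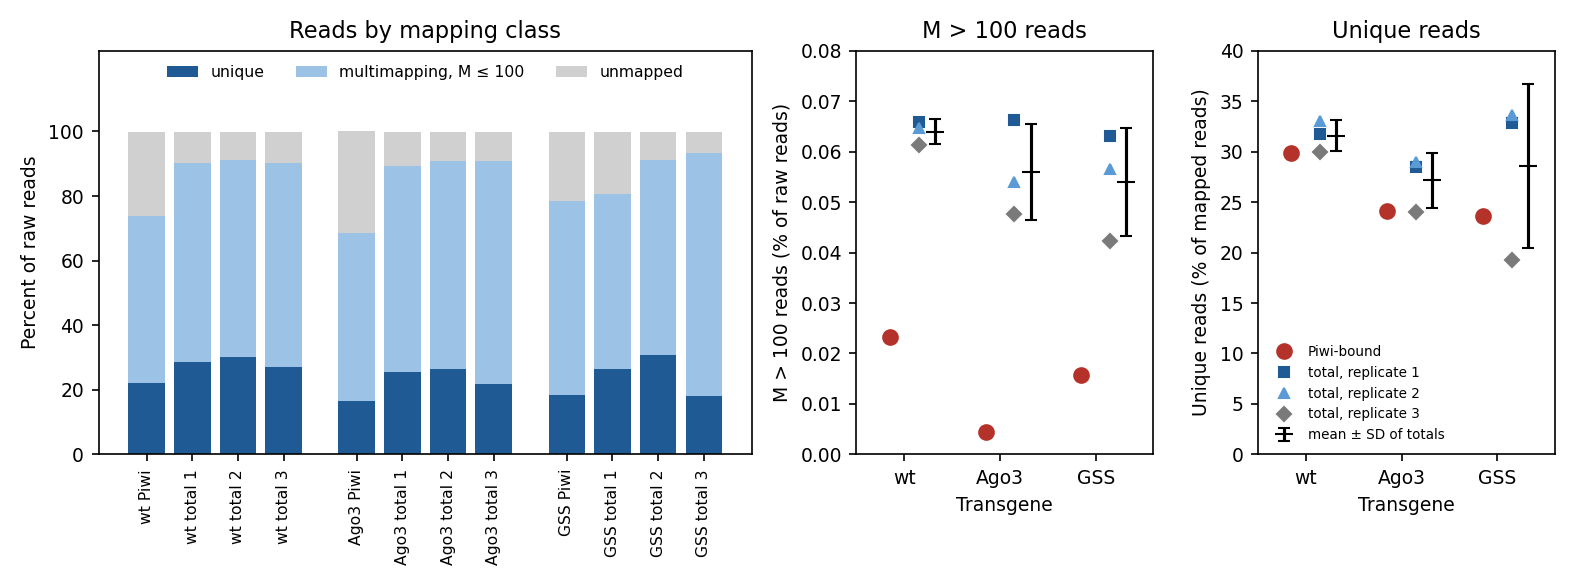
Left, percent of raw reads (y axis) that were unique, multimapping with M ≤ 100 or unmapped in each library (x axis). Middle and right, M > 100 reads as percent of raw reads and unique reads as percent of mapped reads, by transgene, with black marks for the mean ± SD of the 3 total libraries; Piwi-bound M > 100 shares are 0.00439% to 0.0233%, below all total libraries, whereas unique shares overlap.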

How the data were processed

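The values deposited by the authors are read counts: raw, unique, M ≤ 100, M > 100 and unmapped reads per library, and mapped reads at each length between 20 and 30 nt. Before that the authors trimmed adapters (cutadapt), discarded structural RNAs and placed the remaining reads on dm6 (STAR). Shares were computed per library, and no filter was applied. Piwi-bound libraries were compared with total libraries by exact permutation within transgene (64 arrangements, two-sided, 2 times the smaller tail), with the mean over transgenes of the Piwi-bound value minus the mean of its 3 total libraries as statistic, and a threshold of 0.05. The test was run on simulated independent normal values. These did not copy the shared indices or shares that sum to a whole, so that run says nothing about either. Every library's value is given for the most frequent Piwi-bound length, 21 nt, 30 nt and the 3 further lengths with the largest mean difference. Measures and lengths were chosen with earlier results of these data known. Alternatives were other bases, log2 ratios, summed reads, permutation over all 12 libraries and leaving out libraries. Libraries of cultured cells and reads by annotation were not used here. Python 3.11.15, numpy 2.4.6, pandas 2.3.3, scipy 1.17.1 and matplotlib 3.10.9 were used.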

Additional observations from a re-analysis of the deposited data

How the results depend on the processing

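Of 152 alternative values, 126 stayed on their side of the threshold or within the spread between replicates, and of these the 30 nt difference with total reads summed first (-2.44) changed sign. This count does not measure robustness. The 10 summary measures had not passed at the outset, so a weaker difference of the same sign also counted as staying. An example is the 24–29 nt difference of 7.24 points with all mapped reads as base. By exact permutation over all 12 libraries (220 arrangements), the mean differences in 24–29 nt (19.8 points), 20–23 nt (-20.0), mapped (-16.2) and M > 100 reads (-0.0435) passed with adjusted p = 0.0159. Mean length (1.72 nt) passed with 0.0382 in the same exact permutation test. The ratio of 27–29 to 24–26 nt reads (0.968) and the share of mapped reads counted at 20–30 nt (-12.3) passed with 0.0152, and M ≤ 100 reads (-9.17) with 0.0260, also by exact permutation. Mean length without 30 nt reads (1.79 nt) passed within transgenes, at the smallest possible p and through the number of measures tied there. The 30 nt difference was -0.669 with all mapped reads as base.

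With total libraries left out, the differences ranged from 18.3 to 20.8 for 24–29 nt, -23.9 to -18.7 for 20–23 nt and -1.84 to 5.13 for 30 nt. They were 1.57 to 2.21 nt for mean length, 0.941 to 1.08 for the ratio and -13.3 to -11.7 for mapped reads counted at 20–30 nt. By mapping class they were -17.5 to -15.3 for mapped, -10.7 to -6.40 for M ≤ 100, -0.0473 to -0.0418 for M > 100 and -5.59 to -2.41 for unique reads. Lengths past the threshold numbered 0 to 0 there, since fewer libraries raise the smallest p to 0.0417, or 0.0741 without replicate 3 of every transgene. No paired analysis was possible because the Piwi-bound libraries carry no replicate number. Counting error matters for the M > 100 share of total replicate 1 of GSS (70 reads), and 1 Piwi-bound library per transgene allows no test within a transgene.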

Other observations

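The ovary libraries outside the comparison included 1 Piwi-bound library of the LD transgene, which has no total libraries among those analysed here. Its label gives the same homozygous Piwi>gal4 genotype as the others, whereas the study describes LD ovaries as piwi heterozygous, with endogenous Piwi present, so transgene and genotype cannot be told apart. In this library 77.4% of its 20–30 nt reads were 24–29 nt long, 22.2% were 20–23 nt long, its ratio of 27–29 nt to 24–26 nt reads was 0.464 and M > 100 reads were 0.0646% of raw reads. The other Piwi-bound libraries had ratios of 1.13 to 1.55 and 3.64% to 4.45% of 20–23 nt reads. All these LD values lay within the range of the 9 total libraries. There the ratio was 0.155 to 0.592, 20–23 nt reads were 14.9% to 32.1%, 24–29 nt reads 52.8% to 79.3% and M > 100 reads 0.0422% to 0.0663%. The LD library thus did not share the length shift of the other Piwi-bound libraries, whereas the study describes LD piRNAs as close to the others in length. Mapped reads were 85.2% of raw reads in the LD library, against 80.6% to 93.5% in total and 68.6% to 78.5% in other Piwi-bound libraries. Reads counted at 20–30 nt were 89.7% of its mapped reads, against 85.2% to 94.9% and 78.2% to 83.1% in the same order. A difference in library preparation or capture was not tested. With 1 library there is no test.

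Total libraries of ovaries without a transgene gave ratios of 0.133 to 0.332 in 3 piwi null libraries and 0.213 to 0.496 in 3 heterozygous controls. Reads of 20–23 nt were 32.3% to 46.0% in the null and 14.6% to 27.5% in the heterozygous libraries. The length tables held 90.6% to 92.8% of mapped reads in the null libraries, against only 3.72% to 45.8% in the heterozygous libraries. Which reads the heterozygous tables leave out was not examined.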
